A study of Mus musculus with 2 samples.

Results

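Serine, asparagine, proline and cysteine can be made inside the cell, and serine also feeds the folate cycle that carries single-carbon units for the synthesis of nucleotides. The 10 genes described here encode enzymes of these routes and were taken from the deposited count table by symbol: Phgdh, Psat1, Psph, Shmt2, Mthfd2, Aldh1l2, Asns, Aldh18a1, Pycr1 and Cth. All 10 were found among the 25509 genes of the table. They were compared between sarcoma cells of C57BL/6 background carrying a hairpin against the circular RNA circCsnk1g3 (shcircCsnk1g3, 1 library) and the same cells carrying a control hairpin (shCTR, 1 library). The cells of both groups were mesenchymal cells lacking p53 (p53-/-) and overexpressing Ccne1 (Ccne1+), passed through a subcutaneous tumor, seeded in the lungs of further mice, recovered from lung foci and then transduced. The study asked which pathways the circular RNA regulates in the tumor cells. With 1 library per group there was no replicate check, so no p-value is given and every difference is one between these 2 libraries.

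As background, Phgdh catalyses the entry step of serine synthesis from the glycolytic intermediate 3-phosphoglycerate, and Psat1 and Psph the following steps. Shmt2 converts serine to glycine in mitochondria and loads the carbon on tetrahydrofolate, Mthfd2 oxidises the product, and Aldh1l2 releases the carbon as CO2 with formation of NADPH. Asns makes asparagine from aspartate and glutamine, Aldh18a1 and Pycr1 make proline from glutamate, and Cth releases cysteine from cystathionine, the last step of transsulfuration. Many of these genes are known targets of ATF4, the transcription factor that is translated when eIF2 is phosphorylated during amino acid shortage or other stress and that binds C/EBP-ATF response elements.

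The DNA upstream of the members is shown first, because ATF4 acts through short elements near some of these genes. RefSeq promoter windows on GRCm38.p6 (250 bases before to 50 after each annotated start) were found for 8 of the 10 members, with 9 windows in all, and not for Aldh1l2 and Cth. They were searched on both strands for the core of the C/EBP-ATF response element, TGATGNAA, for TTGCATCA, which is the reverse complement of its form with C at N and so overlaps it, and for the cyclic AMP response element TGACGTCA. The core TGATGNAA was present in 2 of the 9 windows, against 3.97% of all 32851 promoter windows. It lay on the sense strand of Asns from 23 to 16 bases before the start, and on the sense strand of Pycr1 from 103 to 96 bases before the start. The Pycr1 match also counted for TTGCATCA, which was found in 1 of 9 windows and in 0.895% of all windows, while TGACGTCA was in 0 of 9 and in 1.79% of all. The matching stretches follow in the direction of transcription, with the matched core in capitals. No match was found in the windows of Phgdh and Psat1, nor in those of 4 members that were higher in shcircCsnk1g3, Psph, Mthfd2, Shmt2 and Aldh18a1. Of these 4, the upstream parts of Shmt2 and Aldh18a1 are shown for comparison, because they hold no annotated exon bases. The stretches of Pycr1, Shmt2 and Aldh18a1 hold no annotated exon bases in GENCODE M21, whereas the short Asns stretch overlaps an annotated exon. A match describes the letters only, and no match says nothing of sites elsewhere in the gene.
Asns, chr6:7693214-7693243, minus strand: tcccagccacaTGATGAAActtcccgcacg
Pycr1, chr11:120643770-120643998, minus strand: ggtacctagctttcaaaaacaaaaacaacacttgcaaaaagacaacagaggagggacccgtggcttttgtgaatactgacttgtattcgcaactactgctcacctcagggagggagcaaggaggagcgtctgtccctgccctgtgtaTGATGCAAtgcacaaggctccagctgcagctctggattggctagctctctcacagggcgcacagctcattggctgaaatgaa
Shmt2, chr10:127522445-127522694, minus strand: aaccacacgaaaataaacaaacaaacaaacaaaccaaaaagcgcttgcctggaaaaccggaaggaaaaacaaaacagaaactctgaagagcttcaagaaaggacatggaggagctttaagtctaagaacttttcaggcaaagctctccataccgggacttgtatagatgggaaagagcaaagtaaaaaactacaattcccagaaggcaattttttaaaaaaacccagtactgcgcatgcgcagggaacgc
Aldh18a1, chr19:40588464-40588713, minus strand: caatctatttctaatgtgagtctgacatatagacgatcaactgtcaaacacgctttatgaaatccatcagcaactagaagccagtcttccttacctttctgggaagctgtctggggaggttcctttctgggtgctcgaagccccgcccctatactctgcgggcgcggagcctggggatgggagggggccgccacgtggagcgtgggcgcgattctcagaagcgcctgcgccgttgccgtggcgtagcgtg

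The libraries held 38792143 (shcircCsnk1g3) and 42709996 (shCTR) estimated counts. Of 8 mesenchymal marker genes, 7 were above 3 counts in each library and Thy1 was not, and their summed level was 10775 CPM (library-size scaled counts) in shcircCsnk1g3 and 11342 CPM in shCTR. Marker lists of leukocytes, endothelium and lung epithelium were low in both libraries, at 2.30 CPM in shcircCsnk1g3 and 3.86 CPM in shCTR for leukocytes, 0.485 and 0.686 CPM for endothelium and 2.35 and 1.09 CPM for lung epithelium. Nearly all of the leukocyte sum was Cd68 (87 against 155 counts) and all of the lung epithelium sum was Krt8 (92 against 46 counts), both past a fold of 1.5 and named after their values were seen, and their part in the results was not tested. The lists had Adgre1, Cd3e, Itgam, Lyz2, Kdr, Epcam, Sftpc, Sftpb, Scgb1a1 and Nkx2-1 at 0 counts in both libraries. Linear Csnk1g3 had 2159 and 2411 counts, and since circular RNAs carry no poly(A) tail these libraries do not measure the silencing itself. Trp53 still gave 3841 and 4334 counts, and Ccne1 893 and 963. Transcripts that overlap or resemble ribosomal RNA (Yam1, Gm42418 and Lars2) took 0.464% of the shcircCsnk1g3 library and 0.142% of the shCTR library, and the part of this difference in the results was not tested. In bulk RNA, fewer cells that express a gene and less RNA per cell cannot be told apart.

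After silencing of circCsnk1g3, 8 of the 10 members were higher by between 22.5% (Mthfd2) and 55.3% (Aldh1l2), while Phgdh and Psat1, which open the serine route, were within 5% of the control. Only Aldh1l2 was 1.5-fold or more higher, where 5.39% of the 12941 genes tested were (tested means that a gene reached 10 counts in either library), and 0 of 10 were 1.5-fold or more lower, where 6.31% of all genes were. A fold of 1.5 is 0.585 on the log2 scale. At a fold of 2, 0 members were higher and 0 lower, where 2.13% and 2.55% of all genes tested were. The log2 fold change was above 0 in 9 of 10 members and in 50.4% of all genes tested. The median log2 fold change of the 10 members was 0.32, against 0.00 over all genes tested. The lowest of the 8 higher members, Mthfd2, was at a log2 fold change of 0.29. As a description of that value, which was taken from the members themselves, 13.9% of all genes tested were at or above it, and 7.00% of the 8719 genes whose counts in the 2 libraries summed to 1000 or more. All members are in that better covered group, in which 0.986% of genes were 1.5-fold or more higher and 1.86% lower, 0.252% were 2-fold or more higher and 0.413% lower, and 49.2% were above 0. The 95% counting interval of the ratio lay above 0 for 9 of 10 members and below 0 for 0 of 10, against 26.9% and 28.2% of all genes tested and 30.8% and 33.0% of the better covered genes. These intervals cover counting error only, not the variation between cultures.

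**Figure D1:**
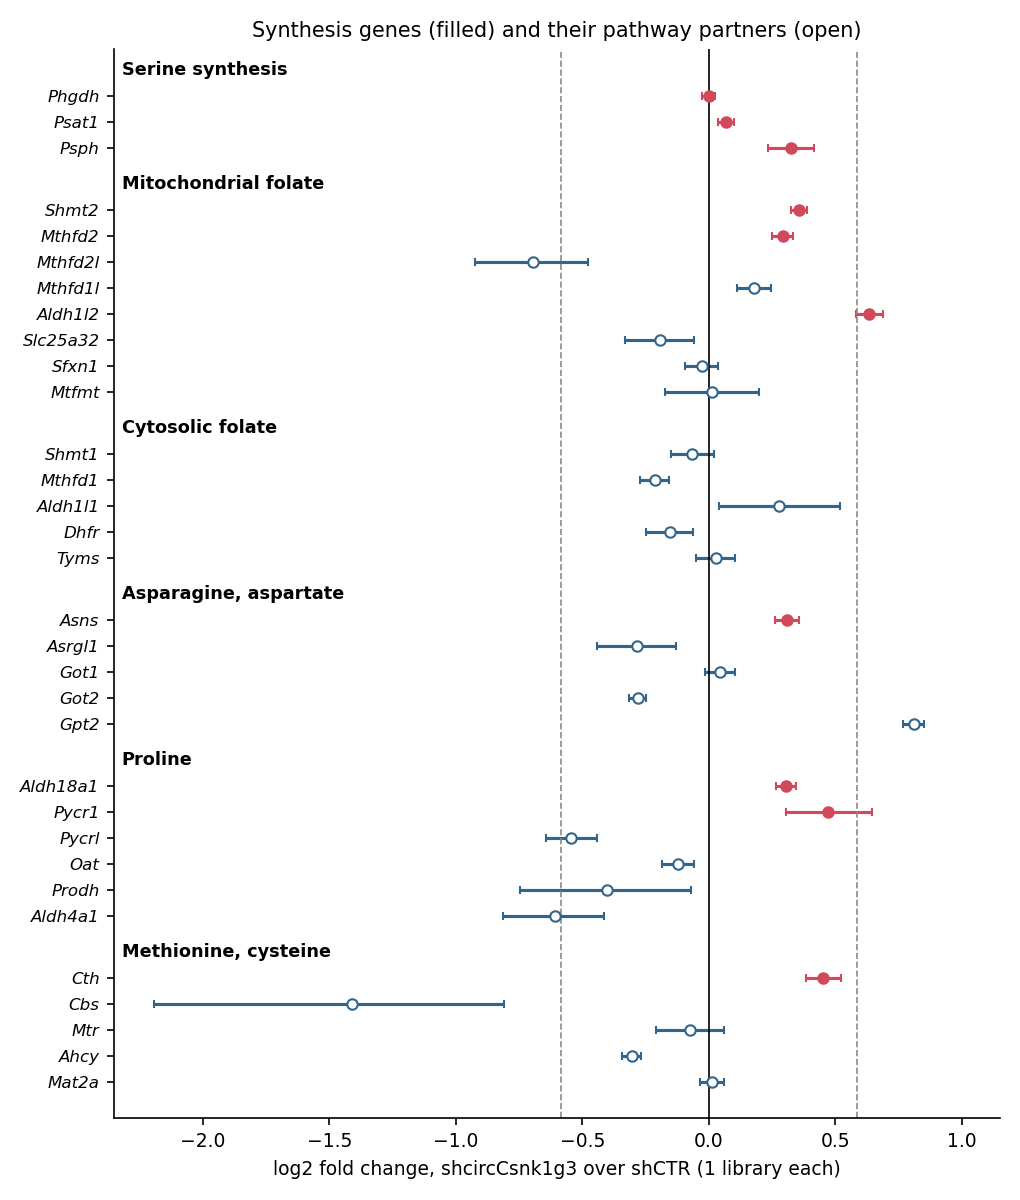
Log2 fold change of shcircCsnk1g3 over shCTR (horizontal axis) for the 10 synthesis genes (filled points) and selected pathway partners (open points), grouped by route, with 95% counting intervals as bars, 1 library per group and dashed lines at a fold of 1.5 either way. Filled points lie between 0.00 (Phgdh) and 0.63 (Aldh1l2). Mthfd2l, Pycrl and Cbs lie to the left of 0, whereas Aldh1l1, the relative of Aldh1l2, lies to the right at 0.28.

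Among the members, the first enzymes of serine synthesis, Phgdh and Psat1, had the smallest differences, while Psph was higher. Phgdh (chr3:98313170-98339990, GRCm38, minus strand, 12 exons in its principal transcript) had 24787 counts in shcircCsnk1g3 and 26720 in shCTR. After scaling for library size, the level was 632.1 and 632.4 CPM, a log2 fold change of 0.00 (-0.03 to 0.02), so no difference was detectable at this depth. Psat1 (chr19:15904678-15947337, minus strand), the aminotransferase that follows Phgdh, had 16959 counts against 17424, or 432 against 412 CPM. Its log2 fold change of 0.07 (0.04 to 0.10) was above 0 by counting error, a difference of 4.86%. Psph (chr5:129765558-129787449, minus strand), the phosphatase that completes serine, had far fewer counts, 2135 against 1836. The level of Psph was 25.3% higher, with a log2 fold change of 0.32 (0.23 to 0.42). The summed counts of the 3 genes gave a log2 fold change of 0.04 (0.02 to 0.06), since Phgdh and Psat1 supply most of them. Psph shares 452 exonic bases with an annotated Cct6a transcript on the other strand, and no source used here says if the counting was strand-specific.

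The 3 members that act in the mitochondrial folate cycle, Shmt2, Mthfd2 and Aldh1l2, were each higher in shcircCsnk1g3. Shmt2 (chr10:127517123-127522444, minus strand) had 18015 counts in shcircCsnk1g3 and 15144 in shCTR, and its level was 28.2% higher, with a log2 fold change of 0.36 (0.33 to 0.39). Mthfd2 (chr6:83305691-83325908, minus strand), the dehydrogenase and cyclohydrolase that is usually low in adult tissues and high in tumors, had 9829 against 8645 counts and a log2 fold change of 0.29 (0.25 to 0.33). Aldh1l2 (chr10:83487450-83534140, minus strand), the mitochondrial formyltetrahydrofolate dehydrogenase, showed the largest difference of the 10 members with 7294 against 5060 counts. Its level was 186.0 CPM against 119.8 CPM, 1.55-fold higher, with a log2 fold change of 0.63 (0.58 to 0.69). It stood above 95.3% of all genes tested and above 99.2% of those with at least 1000 summed counts. The gene shares 1056 of its 7503 annotated exonic bases with D10Wsu102e on the other strand, which had 2579 counts in shcircCsnk1g3 and 2745 in shCTR, a log2 fold change of 0.02 (-0.06 to 0.10).

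Other genes of the mitochondrial cycle were mixed in direction. Of 9 tested genes of that list, 5 were above 0 and 4 below, with a median log2 fold change of 0.01. Among them 1 (Aldh1l2) was 1.5-fold or more higher and 2 were 1.5-fold or more lower, where 5.39% and 6.31% of all genes tested were. Over the 6 list genes with at least 1000 summed counts the median was 0.24, so it depends on whether the scarce genes are counted. The lower genes were Mthfd2l, the close relative of Mthfd2, with 259 against 453 counts and a log2 fold change of -0.69 (-0.92 to -0.48), and Sardh, a sarcosine dehydrogenase of low level, with 55 against 132 counts and -1.13 (-1.64 to -0.69). Sardh was named after its value was seen. Mthfd1l, which releases formate from the mitochondrial product, was at 0.18 (0.11 to 0.25), and the folate carrier Slc25a32 at -0.19 (-0.33 to -0.06). Summed over the list, the counts were 44028 and 38409, a log2 fold change of 0.30 (0.28 to 0.32). Most of these counts come from the members Shmt2, Mthfd2 and Aldh1l2, so the sum largely repeats their own differences.

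The list of cytosolic folate genes holds no member. Of 12 tested genes, 4 were above 0 and 8 below, and the median log2 fold change was -0.10. Among them 0 were 1.5-fold higher or lower, where 5.39% and 6.31% of all genes tested were. Shmt1, the cytosolic counterpart of Shmt2, had 2147 against 2419 counts, a log2 fold change of -0.06 (-0.15 to 0.02). Mthfd1, the trifunctional cytosolic enzyme, had 4647 against 5807 counts and was at -0.21 (-0.27 to -0.16). Aldh1l1, the cytosolic counterpart of Aldh1l2, was higher at 0.28 (0.04 to 0.52) with 311 against 276 counts. The lowest of the list were Mthfs at -0.34 (-0.72 to 0.03) and the folate carrier Slc46a1 at -0.27 (-0.56 to 0.02), and both intervals hold 0. The summed counts of the cytosolic list differed by 0.00 (-0.02 to 0.02) on the log2 scale.

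Asns (chr6:7675169-7693254, minus strand), a long-known ATF4 target that holds a match to the response element core shown above, had 7730 counts in shcircCsnk1g3 and 6724 in shCTR. Its level of 197 against 159 CPM was 23.9% higher, with a log2 fold change of 0.31 (0.26 to 0.36). Asrgl1, which breaks asparagine down, was lower at -0.28 (-0.44 to -0.13), and Got1, which can supply cytosolic aspartate, was at 0.05 (-0.01 to 0.10). Among the 12 tested genes of asparagine, aspartate, glutamate and alanine metabolism, 5 were above 0 and 7 below, with a median of -0.05. Gpt2, the mitochondrial alanine aminotransferase, stood furthest out with 12338 against 7580 counts and a log2 fold change of 0.81 (0.77 to 0.85). It was the only gene of the list that was 1.5-fold or more higher, where 5.39% of all genes tested were. The lowest were Slc25a12, an aspartate and glutamate carrier, at -0.54 (-0.67 to -0.42) and Glul, which makes glutamine, at -0.45 (-0.54 to -0.37).

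Proline synthesis was split between its genes. Aldh18a1 (chr19:40550257-40588463, minus strand), which carries out the entry step from glutamate, had 11327 counts in shcircCsnk1g3 and 9882 in shCTR, a log2 fold change of 0.30 (0.27 to 0.34). Pycr1 (chr11:120635712-120643769, minus strand), the reductase of the last step in mitochondria, had 650 against 504 counts, a level 38.8% higher and a log2 fold change of 0.47 (0.30 to 0.65). Pycrl (now named Pycr3), the cytosolic form of the reductase, was lower, with 1330 against 2088 counts and a log2 fold change of -0.54 (-0.64 to -0.44). Oat, which makes the same intermediate from ornithine, was at -0.12 (-0.18 to -0.06). Both tested genes of proline breakdown were lower, Prodh at -0.40 (-0.75 to -0.07) with 126 against 180 counts and Aldh4a1 at -0.61 (-0.81 to -0.41) with 337 against 555 counts.

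Cth (chr3:157894248-157925077, minus strand) had 3925 counts in shcircCsnk1g3 and 3088 in shCTR, a level 36.9% higher with a log2 fold change of 0.45 (0.39 to 0.52). Cbs, which makes the cystathionine that Cth cleaves, was scarce, with 25 against 75 counts, and at -1.41 (-2.19 to -0.81). Of the 10 tested genes of the methionine cycle and transsulfuration, 3 were above 0 and 7 below, with a median of -0.14. Cbs was the only one 1.5-fold or more lower, where 6.31% of all genes tested were. Besides Cth the highest was Mtap, which salvages methionine, at 0.23 (0.20 to 0.25). The lowest with at least 200 summed counts were Ahcy, which clears S-adenosylhomocysteine, at -0.30 (-0.34 to -0.27) and Ahcyl2 at -0.22 (-0.38 to -0.06).

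The balance between each member and its counterpart was measured inside each library, which needs no scaling for library size. For 13 pairs the ratio of counts in shcircCsnk1g3 was divided by that in shCTR, with a 95% exact conditional interval. A member was the numerator in 12 pairs, and several pairs share a gene. All 13 ratios were higher in shcircCsnk1g3 with intervals above 1. Since most members were higher and were chosen with earlier results of these data known, this largely restates the differences given above. The share of other gene pairs with such an interval was not computed. The ratio of Mthfd2 to Mthfd2l was 37.9 in shcircCsnk1g3 and 19.1 in shCTR, 1.99 times higher (1.70 to 2.33). The ratio of Pycr1 to Pycrl was 0.489 against 0.241, 2.02 times higher (1.76 to 2.32). Proline synthesis against breakdown, as Aldh18a1 to Aldh4a1, stood at 33.6 against 17.8, 1.89 times higher (1.64 to 2.17), and Aldh18a1 to Oat at 2.92 against 2.17. For Mthfd2 and Mthfd2l as well as Pycr1 and Pycrl, the level of the member was higher in shcircCsnk1g3 and that of its relative was lower. Pycr1 had fewer counts than Pycrl in both libraries. Other relatives did not go clearly the other way: Aldh1l1 was higher at 0.28 (0.04 to 0.52), as Aldh1l2 was. The interval of Shmt1, at -0.06 (-0.15 to 0.02), held 0.

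The mitochondrial and cytosolic folate enzymes shifted against each other to a lesser degree. Shmt2 to Shmt1 was 8.39 against 6.26, 1.34 times higher (1.26 to 1.43), Mthfd2 to Mthfd1 was 2.12 against 1.49, 1.42 times higher (1.35 to 1.49), and Mthfd1l to Mthfd1 was 0.785 against 0.598, 1.31 times higher (1.24 to 1.40). Aldh1l2 to Aldh1l1 was 23.5 against 18.3, 1.28 times higher (1.08 to 1.52), a smaller shift than that of Aldh1l2 alone because both genes were higher. Asns to Asrgl1 was 13.2 against 8.72, 1.51 times higher (1.35 to 1.69), and Asns to Got1 was 1.70 against 1.41. Cth to Cbs gave the largest ratio of ratios, 3.81 (2.39 to 6.27), and the widest interval because Cbs was scarce. Within serine synthesis, Psph to Phgdh was 0.0861 against 0.0687, 1.25 times higher (1.17 to 1.34), and Psat1 to Phgdh 1.05 times higher (1.02 to 1.08).

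**Figure D2:**
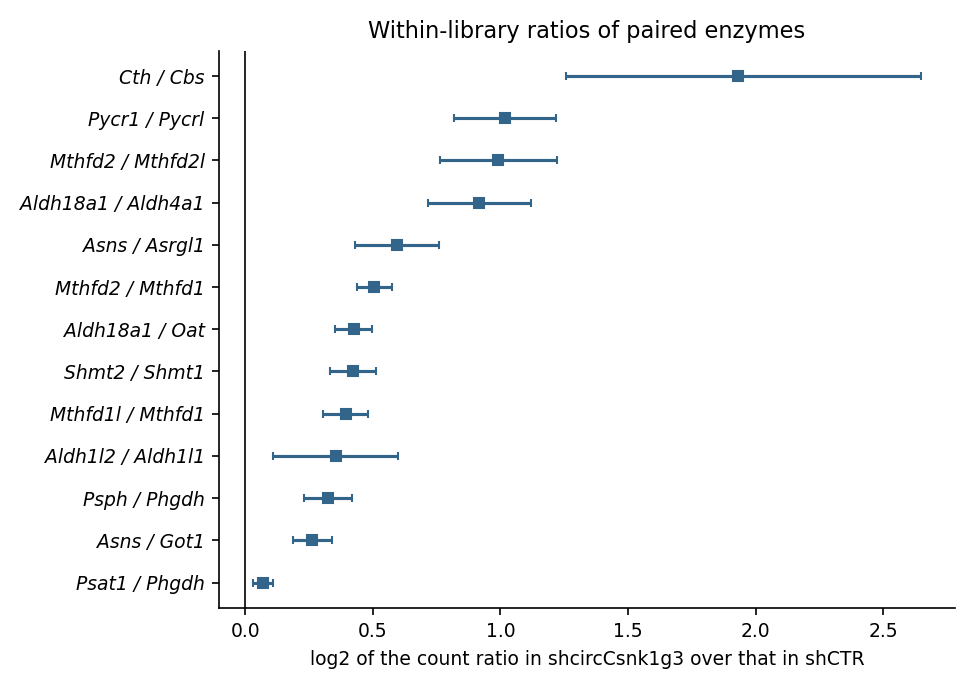
Count ratio of paired enzymes in shcircCsnk1g3 divided by the same ratio in shCTR, on the log2 scale (horizontal axis), with 95% exact conditional intervals as bars and 1 library per group. All 13 pairs lie to the right of 0, from 0.07 for Psat1 to Phgdh up to 1.93 for Cth to Cbs.

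Levels were compared between genes as TMM-scaled CPM per kilobase of the principal transcript in GENCODE M21. Phgdh was the highest in both libraries, at 334.1 in shCTR and 333.9 in shcircCsnk1g3. In shCTR it was followed by Psat1 at 158 (155 to 160, 95% exact Poisson interval) and Shmt2 at 157 (154 to 159), neighbours whose intervals overlap, and then by Mthfd2 at 98.1, Asns at 78.9, Aldh18a1 at 66.3, Cth at 40.3, Psph at 25.1 and Aldh1l2 at 19.9. Pycr1 was the lowest, at 4.09 in shCTR and 5.69 in shcircCsnk1g3. The other neighbouring levels had intervals that did not overlap in shCTR. In shcircCsnk1g3, Shmt2 at 200.7 (198 to 204) stood above Psat1 at 165 (163 to 168), and Psph at 31.4 (30.1 to 32.8) and Aldh1l2 at 30.9 (30.2 to 31.6) had overlapping intervals. The order depends in part on the transcript used: per kilobase of coding length, Psat1 was above Shmt2 in both libraries (390 against 304 in shcircCsnk1g3 and 372 against 237 in shCTR) and Aldh18a1 was above Asns. On that scale Psph was above Cth in shCTR (64.4 against 61.2) and below it in shcircCsnk1g3 (80.7 against 83.8). Phgdh stayed highest and Pycr1 lowest on both length scales.

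**Figure D3:**
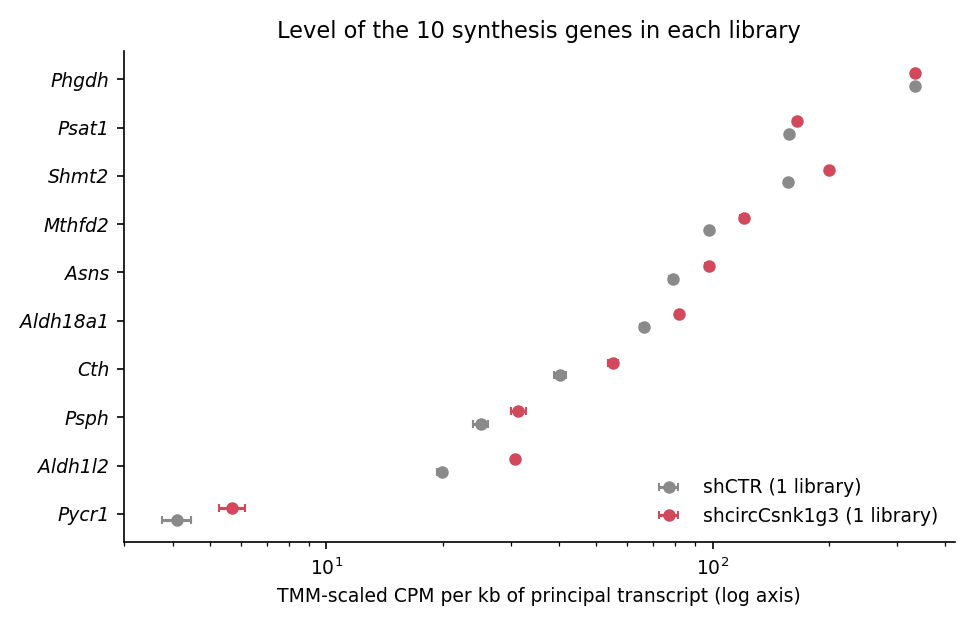
Level of each of the 10 synthesis genes in TMM-scaled CPM per kilobase of principal transcript (horizontal log axis) in the shCTR library (grey) and the shcircCsnk1g3 library (red), with 95% exact Poisson intervals as bars that cover counting error only. The levels run from 4.09 (Pycr1) to 334.1 (Phgdh) in shCTR, and the grey and red points coincide for Phgdh.

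The members together made up 0.265% of the shcircCsnk1g3 counts (102651) and 0.222% of the shCTR counts (95027), a log2 fold change of 0.22 (0.21 to 0.23) for the sum. The 10 pathway lists as a whole had a median slightly below 0. Of their 80 tested genes, 31 were above 0 and 49 below, with a median of -0.07. Of the 80, 2 were 1.5-fold or more higher and 5 were 1.5-fold or more lower, shares that read against 5.39% and 6.31% of all genes tested and do not set the lists apart. Without the 10 members, 22 were above 0 and 48 below, with a median of -0.09. The genes for glycine and serine turnover, 6 of them tested, had a median of -0.07, with Dld, a subunit shared by glycine cleavage and the pyruvate dehydrogenase complex, at 0.21 (0.15 to 0.28) and Gcat, which handles threonine-derived glycine, at -0.39 (-0.44 to -0.34). Srr and Gcsh were at -0.07 (-0.19 to 0.06) and -0.08 (-0.17 to 0.01).

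Other gene groups of the amino acid and stress responses can be set beside the members. Of 12 amino acid transporters, 11 were above 0, 4 were 1.5-fold or more higher (5.39% of all genes tested and 0.986% of the better covered genes were) and the median was 0.35. Those 4, named after their values were seen, were Slc6a9 and Slc7a11 (both at 0.96), Slc7a3 (0.67, with 53 against 35 counts) and Slc1a4 (0.59). Against the same background, of 20 cytosolic tRNA synthetases, 15 were above 0, 0 were 1.5-fold or more higher and the median was 0.10. Of 15 stress response factors and kinases, again against 5.39% and 0.986%, 12 were above 0, 4 were 1.5-fold or more higher and the median was 0.33. That list holds Atf4 itself and the eIF2 kinases that act upstream of it. The 4 past the fold, also named after their values were seen, were Atf3 (1.22), Ddit3 (1.07), Trib3 (0.86) and Ppp1r15a (0.60). Atf4 itself, which is controlled mainly at translation, had 37477 against 38849 counts, a log2 fold change of 0.06. The median of the members, 0.32, was near that of the transporters and of the stress factors, and whether the groups differ could not be tested with 1 library each.

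**Figure D4:**
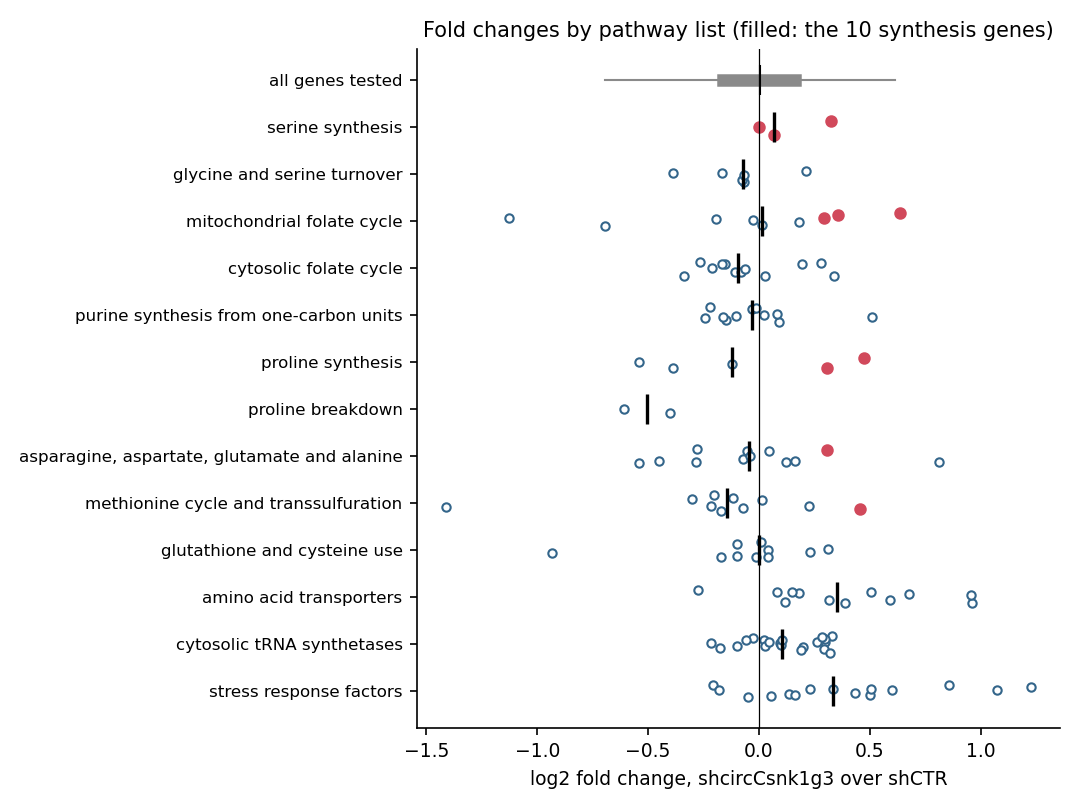
Log2 fold change of shcircCsnk1g3 over shCTR (horizontal axis) for the tested genes of each pathway list, with the 10 synthesis genes filled, the median of each list as a vertical tick, and all genes tested at the top (thin line from the 5th to the 95th percentile, thick line from the 25th to the 75th). Outside serine synthesis the members are the highest genes of their lists, except Asns, which lies below Gpt2. Members and lists were chosen with earlier results of these data known. The medians of the pathway lists stay between -0.51 (proline breakdown) and 0.07 (serine synthesis). The transporter, stress factor and tRNA synthetase lists have medians of 0.35, 0.33 and 0.10.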

How the data were processed

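Poly(A) RNA of 1 shcircCsnk1g3 and 1 shCTR library was sequenced from a stranded kit. The authors converted reads with bcl2fastq 2.20, aligned them to GRCm38 with STAR 2.6.1 and estimated counts per gene with RSEM 1.2.28, which divides reads shared by close paralogs. The deposited estimated counts are whole numbers, without normalization, for 25509 genes, beside 92 spike-in rows at 0 that were left out. A table of TMM-scaled CPM deposited by the authors (edgeR 3.30, 11624 genes, all 10 members, each column a constant times the counts) served as an alternative.

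TMM factors came from edgeR 4.0.16 (R 4.3.3) over the 12941 genes that reached 10 counts in either library. Log2 fold changes compare TMM-scaled CPM after adding a prior count of 2, with 95% Clopper-Pearson intervals of the count ratio, or exact conditional and exact Poisson intervals where stated. Intervals cover counting error only. Reads without molecular identifiers are not independent molecules, so the intervals can be too narrow even for that error. With 1 library per group no test between conditions was run. At 500, 1000 and 10000 counts in each library the half-width of the interval is 0.18, 0.13 and 0.04 on the log2 scale. Intervals were computed with scipy 1.17.1 in Python 3.11.15, and the steps were tested on simulated data.

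Positions and lengths are from GENCODE M21. The authors' release is not given in the sources used here, and M21 holds 25251 of the identifiers in the table. The members and gene lists were chosen with earlier results of these data known. Genes named besides the members are those of the 13 pairs, and the 2 highest and 2 lowest of each of the 10 pathway lists with at least 200 summed counts. Some genes that this rule would name are not reported here by name, and they stay in the counts and medians of their lists. Alternatives were DESeq2 1.42.0 size factors, total counts, prior counts of 0.5 and 10, the deposited table, no count filter, minimum summed counts of 200, a fold of 2 and the interval as the call. A minimum of 1000 summed counts was added after seeing the data. Alignments of the paired proteins were planned and not run here.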

Additional observations from a re-analysis of the deposited data

How the results depend on the processing

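No paired analysis was possible because each group is a single library, and for the same reason no replicate could be left out. DESeq2 size factors, prior counts of 0.5 and 10 and the deposited TMM-scaled table left each of the 10 members within its own interval. With total counts only, which moved the median of all genes from 0.00 to 0.03, Phgdh was at 0.030 and Psat1 at 0.10, and the other 8 stayed within their intervals. With 2 counts added to each gene the 13 paired ratios stayed within their intervals. The deposited table cannot move a ratio taken within a library, so it is no check on them.

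The call decides the counts. At a fold of 2, 0 members were higher, while 9 had intervals above 0. Of the 80 genes of all pathway lists, 0 were higher and 2 lower at a fold of 2, and 22 and 30 by the interval. The 4 higher transporters became 0 and the 4 higher stress factors 2 at a fold of 2, and the transporters became 3 with a prior count of 10 or with at least 200 summed counts. The 5 lower genes became 3 with at least 200 summed counts and 0 with at least 1000, which leave fewer genes by construction. Over all genes tested, 698 were higher and 817 lower at a fold of 1.5. These became 275 and 330 at a fold of 2, 3476 and 3651 by the interval, 1765 and 1468 without the filter, 212 and 335 with at least 200 summed counts, 86 and 162 with at least 1000, and 352 and 528 in the deposited table, which holds 11624 genes. The median of the mitochondrial folate list moved from 0.01 to 0.10 without the filter or with at least 200 summed counts. The least covered member, Pycr1, had 1154 summed counts, so every count filter kept all 10.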

Other observations

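Genes that use the products of these routes were measured in the same libraries. Of 11 genes of purine synthesis, which takes up glycine and formyl groups, 4 were above 0 and 7 below, with a median log2 fold change of -0.03. Past a fold of 1.5 were 0 of them, where 5.39% of all genes tested were higher and 6.31% lower. Ppat, the committing step, was at -0.24 (-0.33 to -0.16) with 1925 against 2455 counts, and Impdh1, which leads to guanine nucleotides, at -0.22 (-0.31 to -0.13). Gmps was at 0.09 (0.04 to 0.13), and Adssl1, an adenylosuccinate synthase, was the highest at 0.51 (0.38 to 0.65) with 1018 against 769 counts.

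Of 10 genes of glutathione and cysteine use, 5 were above 0 and 5 below, with a median of 0.00. Gclc, the catalytic subunit of the enzyme that starts glutathione synthesis, was at 0.23 (0.14 to 0.32), and Csad, which leads from cysteine to hypotaurine, at 0.31 (0.16 to 0.47). Ggct, which acts in glutathione breakdown, had 139 against 288 counts and was at -0.93 (-1.25 to -0.65). It was the only gene of the list past a fold of 1.5, where 5.39% of all genes tested were higher and 6.31% lower. Gss was at -0.17 (-0.37 to 0.02).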
